A study of Homo sapiens with 12 samples.

Results

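Expression of 10 genes was followed in breast cancer tissue: the vascular endothelial growth factor (VEGF) ligands VEGFA, VEGFB, VEGFC and PGF, the co-receptors NRP1 and NRP2, the VEGF receptors FLT1 and KDR, and the endothelial-type receptors TIE1 and ENG. They were taken as a list of gene names, drawn up with earlier results of these data known, and are 10 of the 58735 genes in the deposited table. RNA came from cancer tissue made of GFP-carrying MDA-MB-231 cells, a mesenchymal-like human breast cancer line, in fibrin gel within a perfused AngioPlate, 5 days after the cancer cells were seeded. The cardiac co-culture shared the device with cardiac tissue built from iPSC cardiomyocytes (grown from reprogrammed stem cells) and 2% cardiac fibroblasts. The hepatic co-culture shared it with HepG2 cells, a human liver cancer line, and 2% lung fibroblasts, and the monoculture had cancer tissue alone. Each of the 3 conditions had 4 libraries, called biological replicates without a statement of separate cultures, so p-values measure only the spread between these libraries. All rest on 1 cancer line, and the design names no endothelial cells.

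VEGF ligands are secreted proteins that drive the growth, survival and permeability of blood and lymphatic vessels. They act through receptor tyrosine kinases found mainly on endothelial cells, and neuropilins on endothelial, neuronal and many tumour cells bind both VEGFs and class 3 semaphorins. Tumour cells are a well-known source of VEGFA, whose gene is induced by hypoxia-inducible factor when oxygen is low.

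The receptors that moved in both directions are shown first by the DNA just upstream of their start sites, since TIE1 and ENG were higher and KDR lower in the hepatic co-culture. The stretches are from RefSeq (GRCh38.p14), read 5′ to 3′ on the gene's strand, at chr1:43300732-43300981 (plus strand) for TIE1, chr9:127854757-127854908 (minus strand) for ENG and chr4:55125596-55125845 (minus strand) for KDR. Capitals mark GGAA, the core bound by ETS factors, on either strand (TTCC on the strand printed).
TIE1 promoter: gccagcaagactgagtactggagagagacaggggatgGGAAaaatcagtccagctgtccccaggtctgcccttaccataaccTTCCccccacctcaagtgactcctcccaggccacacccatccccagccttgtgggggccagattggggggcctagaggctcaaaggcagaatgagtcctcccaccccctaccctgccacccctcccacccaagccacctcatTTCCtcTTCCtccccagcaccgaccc
ENG promoter: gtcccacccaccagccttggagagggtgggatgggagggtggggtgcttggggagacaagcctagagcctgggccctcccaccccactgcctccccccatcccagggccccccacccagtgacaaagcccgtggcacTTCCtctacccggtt
KDR promoter: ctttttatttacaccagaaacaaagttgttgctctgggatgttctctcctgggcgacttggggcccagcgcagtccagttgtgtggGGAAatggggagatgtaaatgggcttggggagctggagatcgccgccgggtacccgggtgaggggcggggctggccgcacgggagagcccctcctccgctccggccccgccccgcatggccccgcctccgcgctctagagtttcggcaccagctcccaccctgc
The TIE1 stretch held 4 matches, and the ENG and KDR stretches 1 each. Of 35116 promoter windows of all genes, 92.7% held GGAA, with a median of 3 matches, so its presence is common. Each window was the 250 bases upstream of the RefSeq start site. In windows of that length TIE1 had 4 matches, ENG 3 and KDR 1. The core of the hypoxia-response element, ACGTG or GCGTG on either strand, was in 43.2% of all windows. Among the 8 members with a window it was found in VEGFB, VEGFC, FLT1 and 1 of 2 PGF windows, and not in ENG, KDR, NRP2 or TIE1. A match describes these letters only.

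Library totals, in M (1e6 counts), were 27.0 to 37.4 for the cardiac co-culture, 26.2 to 42.4 for the hepatic and 35.0 to 42.0 for monoculture. Levels are given as counts per 1e6 counts after TMM scaling (CPM), and changes as log2 fold changes with their standard error (SE) from edgeR's quasi-likelihood test, with p adjusted over the 17468 genes tested (threshold 0.05). A library stood apart: principal component 1 (28.5% of the variance) placed cardiac replicate 4 at -24.9, inside the span of monoculture (-51.1 to -22.3), with cardiac replicates 1 to 3 at 6.79 to 16.3 and the hepatic libraries at 24.5 to 46.8. For the members, values without it stand beside each result where it changes a call. Other genes named below are given without such values, so whether their calls depend on this library is not shown. All 12 markers listed for MDA-MB-231 and breast cells were expressed. Of the neighbouring tissues' defining markers, ALB, the main hepatocyte plasma protein, had 0 to 4 counts in the cardiac, 0 to 6 in the hepatic and 0 to 14 in the monoculture libraries. TNNT2, cardiac troponin T, had 0 to 2 counts in the cardiac, 0 in the hepatic and 0 to 4 in the monoculture libraries.

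Of the 9 members tested, edgeR called 4 higher and 0 lower in the cardiac co-culture than in monoculture. Of all tested genes 8.26% were called there, 4.93% higher and 3.33% lower. At an unadjusted p under 0.05 by edgeR, 6 members were higher and 0 lower, where 4489 of all 17468 tested genes passed in either direction. The cardiac count depended on single libraries: it was 6 without cardiac replicate 4, 2 without cardiac replicate 1, and 1 without cardiac replicate 2 or 3, hepatic replicate 3 or 4, or monoculture replicate 1, 3 or 4. Over all genes 1443 were called in this comparison, 263 without cardiac replicate 2 and 3378 without cardiac replicate 4. In the hepatic co-culture 6 members were higher and 2 lower than in monoculture, where 28.0% of all genes were called, 14.4% higher and 13.6% lower. Between the co-cultures edgeR called 1 member higher in the cardiac co-culture and 0 lower, where 6.18% of all genes were called, 3.27% higher and 2.91% lower. At an unadjusted p under 0.05 by edgeR, 2 members passed each way there, and 3585 of all 17468 tested genes in either direction. The median log2 fold change of the 9 members was 0.53 for cardiac co-culture over monoculture (all genes 0.0063), 0.55 for hepatic co-culture over monoculture (all genes 0.015) and -0.04 for cardiac over hepatic co-culture (all genes -0.0034). These comparisons share libraries, so they are given side by side.

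Libraries of the cardiac co-culture and monoculture did not overlap for 2 members (NRP1 and TIE1), against 15.2% of all genes. Those of the hepatic co-culture and monoculture did not overlap for any of the 9 members, against 30.5% of all genes. Cardiac and hepatic libraries did not overlap for 3 members (NRP2, KDR and VEGFC), against 11.9% of all genes. Of all genes called for the cardiac co-culture over monoculture 59.7% were higher, and 72.2% under upper-quartile scaling, which moved the median of all genes to 0.04.

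**Figure D1:**
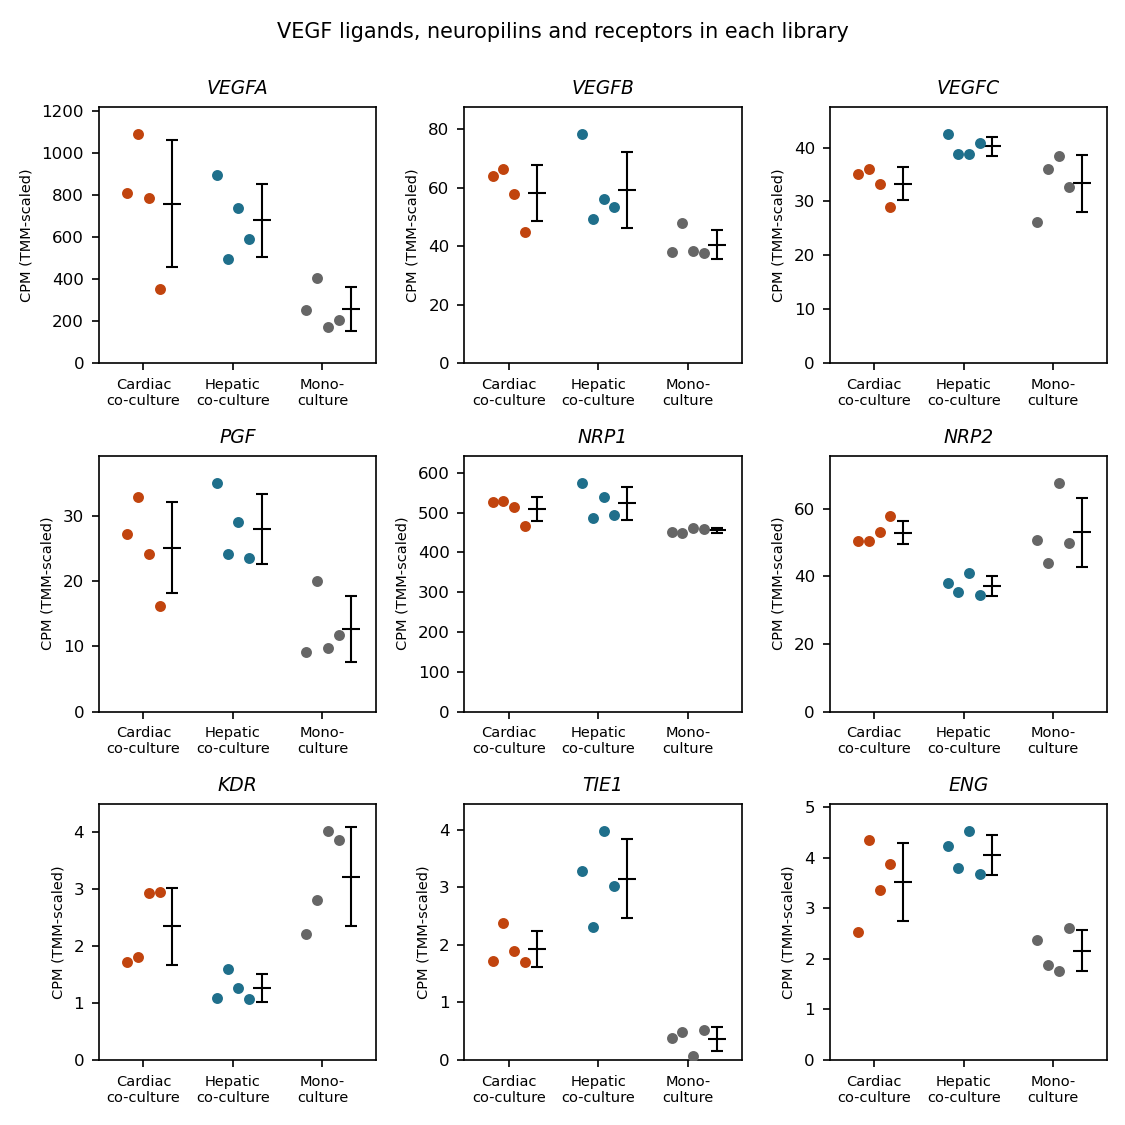
Expression of the 9 tested members in each library, in TMM-scaled CPM on vertical axes that start at 0, with the cardiac co-culture, hepatic co-culture and monoculture from left to right. Coloured points are single libraries (4 per group) and the black mark beside them is the mean with its SD; VEGFA reaches 1089.9 CPM in a cardiac library, and all TIE1 points of both co-cultures lie above those of monoculture.

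VEGFA (ENSG00000112715, chromosome 6, 43770184 to 43786487, plus strand, GRCh38), the main ligand of blood vessel growth, was higher in both co-cultures. It stood at 809, 1089.9, 789 and 353 CPM in the cardiac libraries, at 895, 497, 738 and 589.7 CPM in the hepatic ones, and at 251, 406, 173 and 203 CPM in monoculture. Every hepatic library was above every monoculture library, but cardiac replicate 4 lay below monoculture replicate 2. Means were 760.1 ± 304 CPM (cardiac), 679.8 ± 174 CPM (hepatic) and 258 ± 104 CPM (monoculture; SD, n = 4 each). The change was 1.56 ± 0.38 (SE) for the cardiac co-culture over monoculture (edgeR adjusted p = 0.0402) and 1.40 ± 0.38 for the hepatic (edgeR adjusted p = 0.0233). Between the co-cultures the difference was 0.16, with a 95% interval of -0.68 to 1.00 (edgeR adjusted p = 0.863). The cardiac call was lost without any of cardiac replicates 1, 2 or 3, hepatic replicates 3 or 4, or monoculture replicates 1, 3 or 4 (edgeR adjusted p 0.0548 to 0.122), and when only the 2 groups compared were fitted (edgeR adjusted p = 0.0750). The hepatic call was lost without hepatic replicates 1 or 3 or monoculture replicates 1, 3 or 4 (edgeR adjusted p 0.0555 to 0.0662).

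VEGFB (ENSG00000173511, chromosome 11, 64234538 to 64238793, plus strand), a ligand of FLT1, was higher in both co-cultures by a smaller step. It stood at 64.0, 66.3, 57.7 and 44.9 CPM in the cardiac libraries, at 78.2, 49.3, 56.1 and 53.3 CPM in the hepatic ones, and at 37.9, 47.8, 38.4 and 37.6 CPM in monoculture. Monoculture replicate 2 was above cardiac replicate 4, and no hepatic library was below it. Means were 58.2 ± 9.58 CPM (cardiac), 59.2 ± 12.9 CPM (hepatic) and 40.4 ± 4.96 CPM (monoculture; SD, n = 4 each). On the log2 scale VEGFB rose by 0.53 ± 0.15 in the cardiac co-culture (edgeR adjusted p = 0.0478) and by 0.55 ± 0.15 in the hepatic (edgeR adjusted p = 0.0152). The cardiac call was lost without cardiac replicates 1, 2 or 3, hepatic replicates 3 or 4, or monoculture replicates 1, 3 or 4 (edgeR adjusted p 0.0581 to 0.137).

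PGF (ENSG00000119630, chromosome 14, 74941834 to 74955784, minus strand), placental growth factor, another FLT1 ligand, was higher in the hepatic co-culture. It stood at 27.2, 32.9, 24.1 and 16.2 CPM in the cardiac libraries, at 35.0, 24.1, 29.1 and 23.5 CPM in the hepatic ones, and at 9.13, 20.0, 9.74 and 11.7 CPM in monoculture. Hepatic libraries lay above all of monoculture, while cardiac replicate 4 lay below monoculture replicate 2. Means were 25.1 ± 6.95 CPM (cardiac), 27.9 ± 5.34 CPM (hepatic) and 12.6 ± 5.03 CPM (monoculture; SD, n = 4 each). PGF rose by 1.14 ± 0.28 (log2) in the hepatic co-culture (edgeR adjusted p = 0.0118). For the cardiac co-culture it was 0.98 ± 0.28, with a 95% interval of 0.37 to 1.60, and missed the threshold (edgeR adjusted p = 0.0551). It passed without cardiac replicate 4 (1.15, edgeR adjusted p = 0.0113) or without monoculture replicate 2 (1.30, edgeR adjusted p = 0.00500), and by DESeq2 (adjusted p = 0.0109).

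VEGFC (ENSG00000150630, chromosome 4, 176683538 to 176792727, minus strand), a ligand of lymphatic vessel growth, was called in no comparison. It stood at 35.0, 36.0, 33.2 and 29.0 CPM in the cardiac libraries, at 42.5, 38.8, 38.8 and 40.8 CPM in the hepatic ones, and at 26.3, 36.1, 38.5 and 32.6 CPM in monoculture. The hepatic libraries did not overlap those of either other group, with a narrow gap to monoculture replicate 3. For the cardiac co-culture over monoculture VEGFC had a log2 change of -0.0041 and a 95% interval of -0.22 to 0.21 (edgeR adjusted p = 0.987), and its sign turned in 4 of 18 alternatives. For the hepatic co-culture over monoculture it was 0.27 ± 0.10 (edgeR adjusted p = 0.0590), and it passed without monoculture replicate 3 (edgeR adjusted p = 0.0313) or cardiac replicate 4 (edgeR adjusted p = 0.0454). It also passed under upper-quartile scaling (edgeR adjusted p = 0.0370) and without the low-count filter (edgeR adjusted p = 0.0460). VEGFD, another lymphatic ligand, had 6 to 34 counts and was not called, and FLT4, the receptor for VEGFC, had at most 6 counts in any library.

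**Figure D2:**
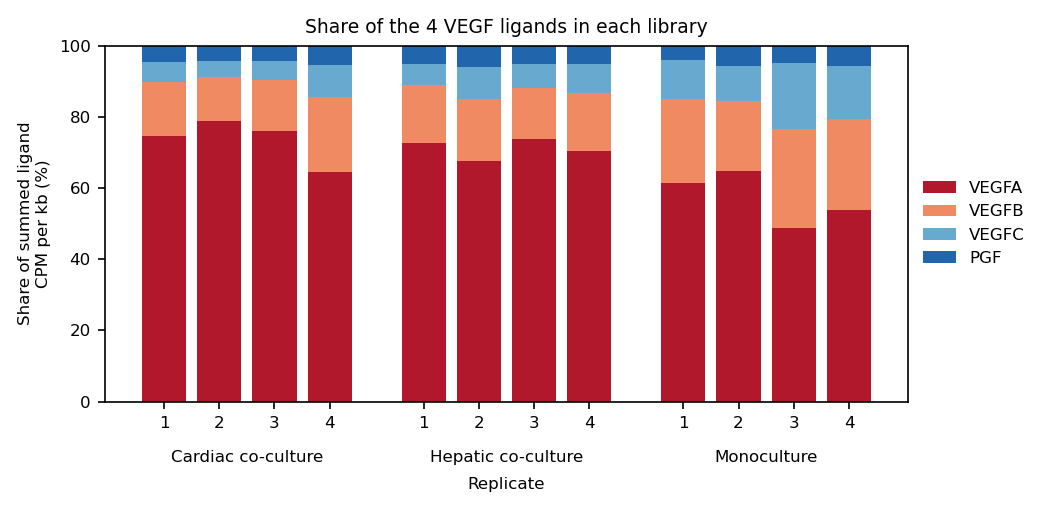
Share of the summed level of the 4 VEGF ligands (CPM per kilobase of the longest coding transcript, in percent) held by each ligand. Each stacked bar is 1 library, grouped as cardiac co-culture, hepatic co-culture and monoculture, and VEGFA averages 73.5%, 71.1% and 57.2% in these groups.

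Per kilobase of the longest coding transcript, VEGFA held the largest share of the 4 ligands in each group. Its share was 73.5 ± 6.27% in the cardiac co-culture, 71.1 ± 2.67% in the hepatic co-culture and 57.2 ± 7.21% in monoculture (SD, n = 4 each). The hepatic libraries (67.7 to 73.7%) lay above all of monoculture (48.7 to 64.7%), and cardiac replicate 4 at 64.5% overlapped it. The share of VEGFC was 6.14% in the cardiac and 7.48% in the hepatic co-culture, against 13.6% in monoculture, and that of VEGFB was 15.7% in the cardiac and 16.0% in the hepatic co-culture, against 24.1% in monoculture. With the union of all annotated exons as length, an alternative added after the values were seen, the share of VEGFA was 47.0% in the cardiac, 43.8% in the hepatic and 29.2% in monoculture.

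NRP1 (ENSG00000099250, chromosome 10, 33177492 to 33336262, minus strand), a VEGFA and semaphorin co-receptor, was among the steadiest members. It stood at 528, 529.9, 513 and 466 CPM in the cardiac libraries, at 575, 487, 539 and 494 CPM in the hepatic ones, and at 450.3, 449.6, 461 and 459.8 CPM in monoculture. Both co-cultures lay above all monoculture libraries, whose coefficient of variation was 1.35%. NRP1 rose by 0.20 ± 0.07 (log2) in the hepatic co-culture (edgeR adjusted p = 0.0338) and its change of 0.16 ± 0.07 in the cardiac co-culture missed the threshold (edgeR adjusted p = 0.141). The hepatic call was lost without cardiac replicate 3, hepatic replicates 1 or 3, or any monoculture library (edgeR adjusted p 0.0514 to 0.0908), and the cardiac change passed without cardiac replicate 4 (edgeR adjusted p = 0.0361).

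NRP2 (ENSG00000118257, chromosome 2, 205681990 to 205798133, plus strand), which binds VEGFC and class 3 semaphorins, was lower in the hepatic co-culture than in monoculture and than in the cardiac co-culture. It stood at 50.5, 50.6, 53.0 and 57.8 CPM in the cardiac libraries, at 38.0, 35.4, 40.9 and 34.5 CPM in the hepatic ones, and at 50.7, 44.0, 67.7 and 49.9 CPM in monoculture. Every hepatic library was below every library of the other groups. Means were 53.0 ± 3.43 CPM (cardiac), 37.2 ± 2.89 CPM (hepatic) and 53.1 ± 10.2 CPM (monoculture; SD, n = 4 each). NRP2 had a log2 change of -0.51 ± 0.11 for the hepatic co-culture over monoculture (edgeR adjusted p = 0.00168) and 0.51 ± 0.11 for the cardiac over the hepatic co-culture (edgeR adjusted p = 0.00666). NRP2 was the member called between the co-cultures, and that call held in all 18 alternatives. For the cardiac co-culture over monoculture the change was -0.0031, with a 95% interval of -0.22 to 0.22 (edgeR adjusted p = 0.990).

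**Figure D3:**
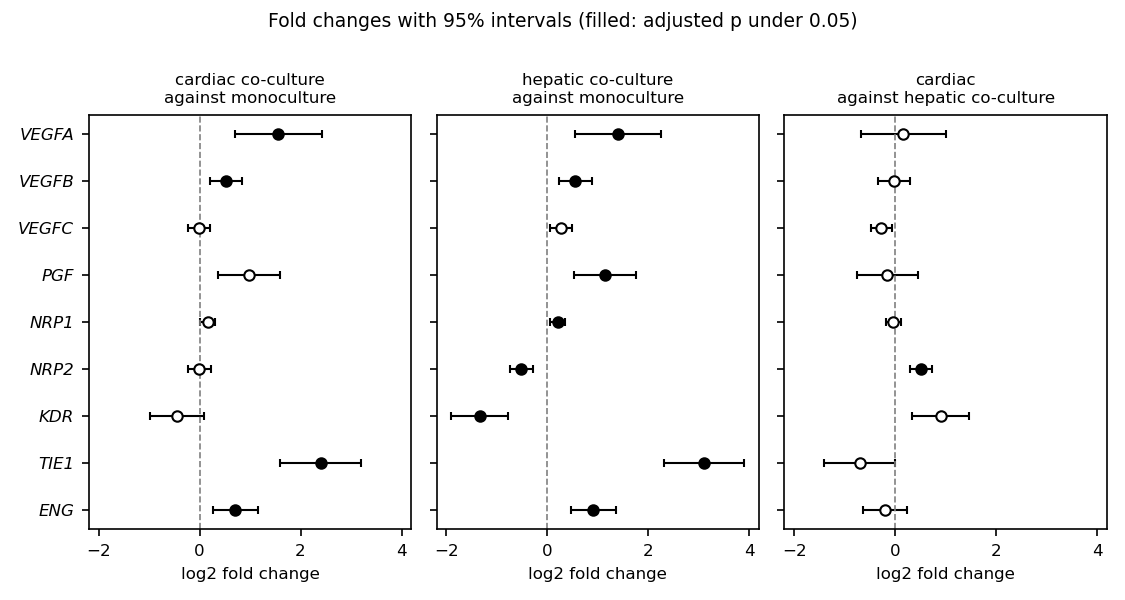
Log2 fold changes (horizontal axis) of the 9 tested members for cardiac co-culture over monoculture, hepatic co-culture over monoculture and cardiac over hepatic co-culture. Bars are 95% intervals from edgeR and filled points have an adjusted p under 0.05; TIE1 has the highest values over monoculture (2.40 in the cardiac and 3.10 in the hepatic co-culture), and KDR is at -1.34 in the hepatic.

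TIE1 (ENSG00000066056, chromosome 1, 43300993 to 43323108, plus strand), an orphan receptor tyrosine kinase that modulates angiopoietin signalling through TEK, had the highest log2 fold change of the members over monoculture. It stood at 1.72, 2.38, 1.89 and 1.71 CPM in the cardiac libraries, at 3.28, 2.31, 3.97 and 3.02 CPM in the hepatic ones, and at 0.387, 0.485, 0.0692 and 0.528 CPM in monoculture. These rest on 47 to 65 counts in the cardiac, 79 to 116 in the hepatic and 3 to 19 in the monoculture libraries. No co-culture library overlapped monoculture. On the log2 scale TIE1 rose by 2.40 ± 0.38 (5.27-fold) in the cardiac co-culture (edgeR adjusted p = 0.00324) and by 3.10 ± 0.38 (8.60-fold) in the hepatic (edgeR adjusted p = 1.6e-05), and both calls held in all 18 alternatives. Between the co-cultures the difference was -0.71, with a 95% interval of -1.41 to -0.01 (edgeR adjusted p = 0.238). In bulk RNA, a change in the number of cells of a type and a change in RNA per cell cannot be told apart.

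ENG (ENSG00000106991, chromosome 9, 127815012 to 127854756, minus strand), endoglin, a co-receptor for TGF-beta and BMP ligands on endothelial cells, was higher in both co-cultures. It stood at 2.53, 4.34, 3.36 and 3.87 CPM in the cardiac libraries, at 4.23, 3.80, 4.52 and 3.67 CPM in the hepatic ones, and at 2.38, 1.89, 1.75 and 2.61 CPM in monoculture. Cardiac replicate 1 lay below monoculture replicate 4, and no hepatic library overlapped monoculture. Means were 3.52 ± 0.777 CPM (cardiac), 4.06 ± 0.391 CPM (hepatic) and 2.16 ± 0.404 CPM (monoculture; SD, n = 4 each). ENG rose by 0.71 ± 0.21 (log2) in the cardiac co-culture (edgeR adjusted p = 0.0441) and by 0.91 ± 0.21 in the hepatic (edgeR adjusted p = 0.00338). The cardiac call was lost without cardiac replicates 2 or 3, hepatic replicates 2, 3 or 4, or any monoculture library (edgeR adjusted p 0.0521 to 0.159), and when only the 2 groups compared were fitted (edgeR adjusted p = 0.0623). Over the 12 libraries ENG had 1280 counts and the antisense gene AL162586.1, named because it overlaps ENG in GENCODE 29, had 1012. The strand setting of the counting is not known, so ENG is uncertain. AL162586.1 changed by 0.33 ± 0.31 in the cardiac co-culture (edgeR adjusted p = 0.553) and by 0.43 ± 0.31 in the hepatic (edgeR adjusted p = 0.320).

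KDR (ENSG00000128052, chromosome 4, 55078259 to 55125595, minus strand), the main signalling receptor for VEGFA, went the other way. It stood at 1.72, 1.81, 2.93 and 2.95 CPM in the cardiac libraries, at 1.09, 1.61, 1.27 and 1.07 CPM in the hepatic ones, and at 2.21, 2.81, 4.02 and 3.86 CPM in monoculture, from 28 to 174 counts a library. All hepatic libraries were below all others, while the cardiac libraries overlapped monoculture. Means were 2.35 ± 0.677 CPM (cardiac), 1.26 ± 0.247 CPM (hepatic) and 3.22 ± 0.861 CPM (monoculture; SD, n = 4 each). KDR had a log2 change of -1.34 ± 0.27 for the hepatic co-culture over monoculture (edgeR adjusted p = 0.00129) and -0.45, with a 95% interval of -0.99 to 0.09, for the cardiac (edgeR adjusted p = 0.287). Cardiac over hepatic it was 0.90 ± 0.27 (edgeR adjusted p = 0.0567), and it passed without cardiac replicate 1 (edgeR adjusted p = 0.0395), without the low-count filter (edgeR adjusted p = 0.0365) and by DESeq2 (adjusted p = 0.0222).

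FLT1 (ENSG00000102755, chromosome 13, 28300344 to 28495145, minus strand), the receptor for VEGFA, VEGFB and PGF, was too low to test. It had 0, 0, 0 and 1 counts in the cardiac libraries, 0, 6, 0 and 0 in the hepatic ones, and 0, 2, 0 and 0 in monoculture. A library at 0 allows up to 3 counts, a limit that covers counting error only.

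Per kilobase of the longest coding transcript, VEGFA and NRP1 had the highest levels in each group. In the cardiac co-culture the mean levels per kilobase were 215 CPM for VEGFA, 86.6 for NRP1, 42.2 for VEGFB, 16.1 for VEGFC, 13.0 for PGF and 7.95 for NRP2, then 1.15 for ENG, 0.496 for TIE1 and 0.389 for KDR. VEGFC and PGF, PGF and NRP2, and TIE1 and KDR did not differ beyond their ranges there. In the hepatic co-culture the order was the same, from 192 CPM for VEGFA to 0.208 for KDR, with no overlap between neighbours. In monoculture NRP1 (77.4) and VEGFA (73.1) overlapped, KDR (0.532) stood above TIE1 (0.0946), and NRP2 overlapped PGF. With exon-union lengths, VEGFA in monoculture (17.9) was below both NRP1 (39.5) and VEGFB (26.2).

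**Figure D4:**
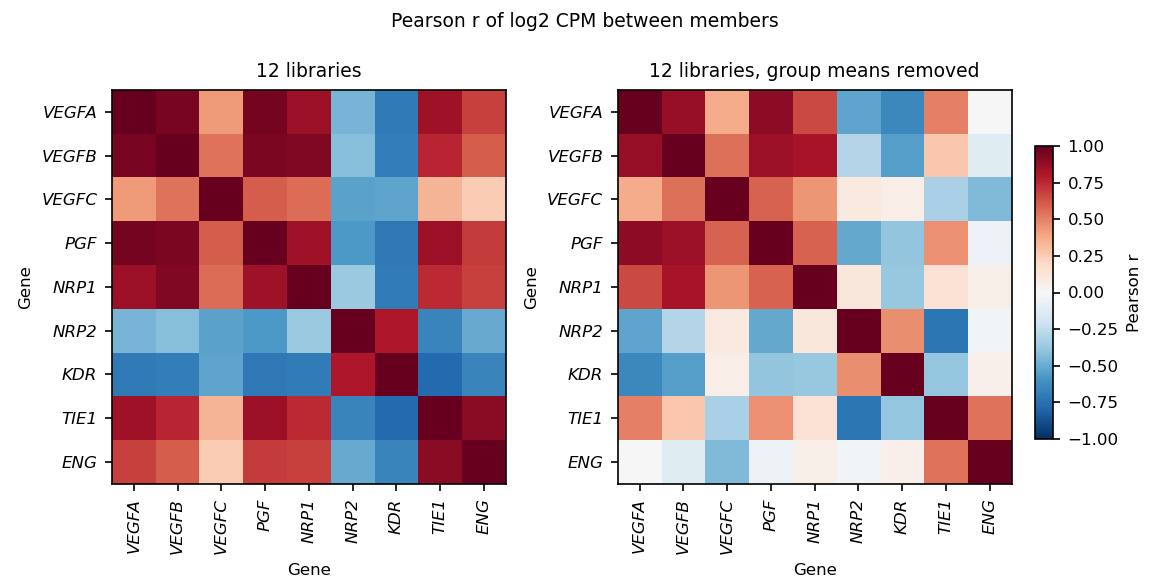
Pearson correlation of log2 CPM between each pair of the 9 tested members over the 12 libraries (left) and after removing group means (right), with colour running from -1 to 1. VEGFA and PGF reach 0.954 over all libraries and 0.896 after group means are removed.

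Over the 12 libraries, VEGFA, VEGFB and PGF varied together, with Pearson correlations of logCPM of 0.938 to 0.954. After group means were removed these were 0.857 to 0.896. NRP1 correlated with VEGFA, VEGFB and PGF at 0.848 to 0.922, and at 0.592 to 0.828 after group means were removed. TIE1 and ENG correlated at 0.904, and at 0.545 after group means were removed. KDR and TIE1 correlated at -0.779, and at -0.390 after group means were removed. All points share the libraries, their depth and the grouping, so these are descriptions. Among 11669 protein-coding genes with a mean logCPM above 1, VEGFA was most like THEMIS2 (r = 0.985), PLOD1 (0.981) and BHLHE40 (0.980), and PGF like PFKFB3 (0.980), ADM (0.976) and MXI1 (0.975). TIE1 was most like DOC2A (0.974), TNC (0.957) and ODF3B (0.957), and ENG like LMBR1L (0.936), LENG8 (0.936) and PLEKHG2 (0.933).

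Ligands and receptors that act with the neuropilins were read from a list of 13 genes. These and the next counts are to be read against the 8.26% of all genes called in the cardiac and 28.0% in the hepatic comparison with monoculture. Counts at an unadjusted p under 0.05 by edgeR are to be read against 4489 genes in the cardiac and 6795 in the hepatic comparison, of 17468. Of the class 3 semaphorins, plexins and adaptors, 2 were higher and 1 lower in the cardiac co-culture (median log2 change 0.07), and 6 were higher and 1 lower in the hepatic (median 0.09). SEMA3B, a secreted semaphorin, was at 64.6 ± 6.61 CPM in the cardiac and 78.6 ± 4.05 CPM in the hepatic co-culture, against 40.3 ± 7.18 CPM in monoculture. It rose by 0.68 ± 0.11 (log2) in the cardiac (edgeR adjusted p = 0.00324) and by 0.96 ± 0.11 in the hepatic (edgeR adjusted p = 7.59e-06). PLXNA3, a semaphorin receptor, rose by 0.43 in the cardiac (edgeR adjusted p = 0.0150) and by 0.51 in the hepatic co-culture (edgeR adjusted p = 0.000967). Of 5 angiopoietin and TIE partners 0 were called in any comparison by edgeR; 2 over monoculture in each co-culture passed an unadjusted p under 0.05 and DESeq2 called 1 in each. TEK was at 0.410 CPM in the cardiac co-culture, 0.604 in the hepatic and 0.291 in monoculture. Of 12 tested endoglin partners, 1 was higher in the cardiac co-culture, TGFBR2 (0.41 ± 0.12, edgeR adjusted p = 0.0455), while 2 were higher and 4 lower in the hepatic. There TGFB1 rose by 0.79 (edgeR adjusted p = 0.00833) and TGFB2 changed by -0.48 (edgeR adjusted p = 0.00816).

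Hypoxia genes were read beside VEGFA, which the hypoxia response is known to induce. Of 18 hypoxia targets, edgeR called 4 higher and 0 lower than in monoculture in each co-culture, with median log2 changes of 1.04 in the cardiac and 0.87 in the hepatic. Over all tested genes, 4.93% were called higher in the cardiac and 14.4% in the hepatic comparison (8.26% and 28.0% in either direction). The list was not tested as a set. At an unadjusted p under 0.05 by edgeR, 18 targets were higher in the cardiac and 13 in the hepatic co-culture, and 0 lower. Over all 17468 tested genes, 4489 and 6795 passed that limit in either direction. DESeq2 called 16 targets higher in the cardiac and 11 in the hepatic, and 0 lower. MXI1, a MYC antagonist, rose by 0.68 in the cardiac (edgeR adjusted p = 0.0403) and by 0.78 in the hepatic (edgeR adjusted p = 0.00748). ENO2, a glycolytic enolase, was at 289 CPM in the cardiac (edgeR adjusted p = 0.0462) and 333 CPM in the hepatic co-culture (edgeR adjusted p = 0.00996), against 108 CPM in monoculture. DDIT4, an inhibitor of mTORC1, rose by 1.03 in the cardiac (edgeR adjusted p = 0.0251), with a change of 0.20 in the hepatic (edgeR adjusted p = 0.549). KDM3A, a histone demethylase, rose by 0.92 in the cardiac (edgeR adjusted p = 0.0422), with 0.60 in the hepatic (edgeR adjusted p = 0.0861). P4HA1, a collagen prolyl hydroxylase subunit, was at 326 CPM in the cardiac (edgeR adjusted p = 0.0869) and 333 CPM in the hepatic co-culture (edgeR adjusted p = 0.0399), against 154 CPM in monoculture. HIF1A, the oxygen-regulated subunit, was lower in the cardiac co-culture than in monoculture (-0.46 ± 0.09, edgeR adjusted p = 0.00742) and than in the hepatic (-0.41 ± 0.09, edgeR adjusted p = 0.00705). EPAS1, its paralogue HIF-2 alpha, was lower in the hepatic co-culture than in monoculture (-0.60 ± 0.11, edgeR adjusted p = 0.000667), and higher in the cardiac than in the hepatic co-culture (0.44 ± 0.11, edgeR adjusted p = 0.0198). Of 8 tested genes of hypoxia-inducible factor and its oxygen sensors, edgeR called 0 higher and 1 lower in the cardiac co-culture. In the hepatic 1 was higher and 1 lower, and DESeq2 called 2 higher and 1 lower in each. ARNT was the higher one, at 0.27 ± 0.08 in the hepatic (edgeR adjusted p = 0.0223), with 0.24 in the cardiac (edgeR adjusted p = 0.0773). Of 19 tested VEGF receptor signalling genes, edgeR called 2 higher and 0 lower in the cardiac co-culture, where 4 were lower at an unadjusted p under 0.05 and DESeq2 called 2 lower, and 4 higher and 4 lower in the hepatic. MAPK3, an ERK kinase, rose by 0.27 ± 0.08 in the cardiac (edgeR adjusted p = 0.0483) and by 0.59 ± 0.08 in the hepatic (edgeR adjusted p = 5.15e-05). SHC2, an adaptor protein, rose by 0.94 ± 0.28 in the cardiac (edgeR adjusted p = 0.0462) and by 1.66 ± 0.28 in the hepatic (edgeR adjusted p = 0.00036). PIK3R1, a PI3-kinase subunit, fell by 0.45 in the hepatic (edgeR adjusted p = 0.00179), with a change of -0.27 in the cardiac (edgeR adjusted p = 0.0809).

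Of 9 genes listed as angiogenesis inhibitors, 1 was higher and 1 lower in the cardiac co-culture, and 3 higher and 1 lower in the hepatic. The shares of all genes were 4.93% higher and 3.33% lower in the cardiac, and 14.4% higher and 13.6% lower in the hepatic. THBS1, thrombospondin, was at 202 ± 40.4 CPM in the cardiac and 220 ± 18.2 CPM in the hepatic co-culture, against 313 ± 43.1 CPM in monoculture. It changed by -0.63 in the cardiac (edgeR adjusted p = 0.0125) and by -0.51 in the hepatic (edgeR adjusted p = 0.00771). SERPINF1, which encodes PEDF, rose by 1.01 in the cardiac (edgeR adjusted p = 0.0169) and by 0.63 in the hepatic (edgeR adjusted p = 0.0460). VASH2, a vasohibin whose role as an inhibitor is not established, rose by 0.70 in the hepatic (edgeR adjusted p = 0.0196), with 0.15 in the cardiac (edgeR adjusted p = 0.711). Of 10 other angiogenic factors tested 0 were called by edgeR in the cardiac co-culture, where 3 were higher and 2 lower at an unadjusted p under 0.05 and DESeq2 called 2 higher and 1 lower. In the hepatic co-culture ADM, adrenomedullin, rose by 2.07 ± 0.67 (edgeR adjusted p = 0.0454) and EDN1, endothelin-1, changed by -0.56 (edgeR adjusted p = 0.0429). Between the co-cultures HBEGF, an EGF receptor ligand, was lower in the cardiac (-0.41 ± 0.11, edgeR adjusted p = 0.0317).

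**Figure D5:**
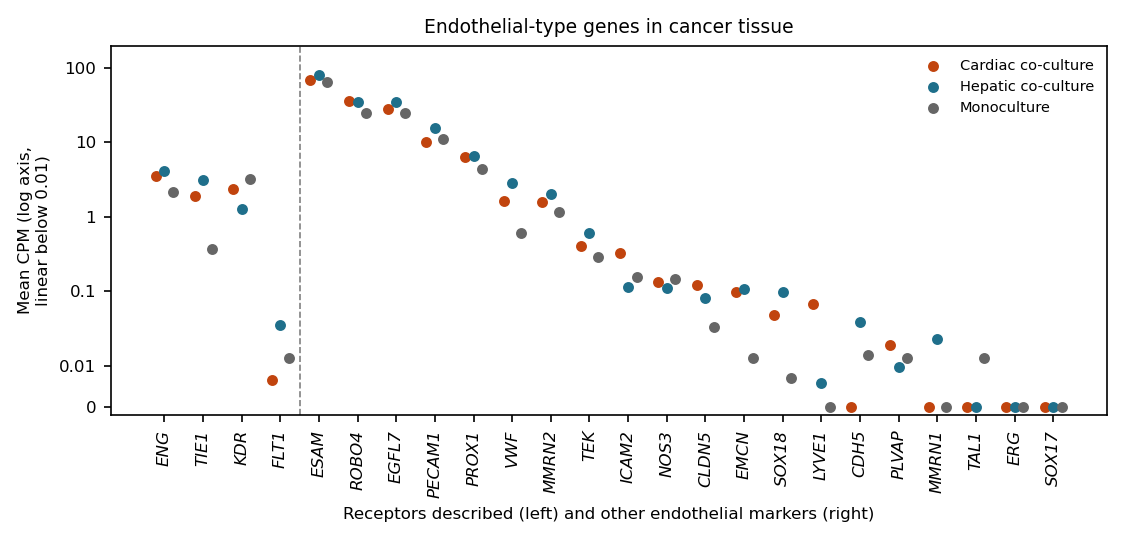
Group mean CPM (vertical axis, logarithmic above 0.01 and linear below) of ENG, TIE1, KDR and FLT1, left of the dashed line, and of the 20 endothelial markers, right of it. Points are the cardiac co-culture, hepatic co-culture and monoculture (4 libraries each); ERG and SOX17 are at 0, while VWF averages 1.62 CPM (cardiac), 2.86 CPM (hepatic) and 0.596 CPM (monoculture).

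Markers of endothelial cells moved with TIE1 and ENG in part. The summed level of 20 markers was 142.9 to 164.2 CPM in the cardiac, 167.3 to 189.8 in the hepatic and 125.2 to 136.2 in the monoculture libraries. ESAM, ROBO4, EGFL7 and PECAM1 gave most of that sum in each group, monoculture included. ESAM alone was at 69.0 CPM in the cardiac, 80.3 in the hepatic and 64.5 in monoculture. Markers other than the 8 tested were too low to test. Of 8 tested, edgeR called 2 higher in the cardiac and 5 in the hepatic co-culture, and 0 lower (0 lower also at an unadjusted p under 0.05 and by DESeq2). Over all tested genes, 4.93% were called higher in the cardiac and 14.4% in the hepatic comparison. VWF, von Willebrand factor, rose by 1.44 ± 0.40 in the cardiac (edgeR adjusted p = 0.0362) and by 2.26 ± 0.40 in the hepatic (edgeR adjusted p = 0.000496). It had 19 to 94 counts in the cardiac, 50 to 127 in the hepatic and 19 to 31 in the monoculture libraries. ROBO4 rose by 0.52 ± 0.12 in the cardiac (edgeR adjusted p = 0.0154) and by 0.48 ± 0.12 in the hepatic (edgeR adjusted p = 0.00573). ESAM rose by 0.32 ± 0.06 in the hepatic (edgeR adjusted p = 0.00127) and EGFL7 by 0.48 ± 0.10 (edgeR adjusted p = 0.00161). Neither was called in the cardiac (edgeR adjusted p = 0.349 for ESAM and 0.369 for EGFL7). CDH5, the defining endothelial cadherin, had 0 counts in the cardiac, 0 to 5 in the hepatic and 0 to 2 in the monoculture libraries, and ERG and SOX17 had 0 in all 12. PECAM1 was at 10.2 CPM in the cardiac and 15.5 CPM in the hepatic co-culture, against 10.9 CPM in monoculture, and was not called. The part of other cells in the change of TIE1 and ENG was not tested.

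Markers of the neighbouring tissues were also summed. Hepatocyte markers were at 97.7 to 137 CPM in the cardiac, 41.7 to 73.4 in the hepatic and 61.7 to 100.5 in the monoculture libraries, with 2 of the 18 at 0 in every library. Of 4 tested, 1 was higher in the cardiac, and 1 higher and 1 lower in the hepatic. For this and the next lists, 4.93% of all genes were higher and 3.33% lower in the cardiac comparison. In the hepatic, 14.4% were higher and 13.6% lower. FGG, a fibrinogen chain, rose by 2.01 in the cardiac (edgeR adjusted p = 0.0391) and by 2.52 in the hepatic (edgeR adjusted p = 0.00403), while HP, haptoglobin, changed by -1.97 in the hepatic (edgeR adjusted p = 0.00307). SERPINA1, alpha-1 antitrypsin, gave much of the sum, at 82.0 CPM in the cardiac and 46.5 CPM in the hepatic co-culture, against 57.4 CPM in monoculture. Cardiomyocyte markers were at 1.91 to 5.29 CPM in the cardiac, 1.59 to 2.83 in the hepatic and 2.64 to 3.67 in the monoculture libraries. Fibroblast markers were at 42.6 to 54.5 CPM in the cardiac, 30.5 to 56.1 in the hepatic and 36.3 to 44.6 in the monoculture libraries, with 3 of 14 at 0 in every library. COL6A3, a collagen chosen for mention once its level was known, gave a large part of that sum, at 33.7 CPM in the cardiac co-culture against 26.9 CPM in monoculture, and was not called in either co-culture. Of 7 tested, 0 were called in the cardiac by edgeR (1 lower at an unadjusted p under 0.05, 0 by DESeq2), and 2 were higher and 1 lower in the hepatic. There COL1A2 rose by 1.55 (edgeR adjusted p = 0.0121) and COL3A1 by 2.84 (edgeR adjusted p = 0.0257), both fibrillar collagen genes, while DCN, decorin, changed by -3.10 (edgeR adjusted p = 3.96e-05). Their part in the results above was not tested.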

How the data were processed

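Poly(A) RNA was sequenced, per the labels' protocols, and the authors deposited raw counts of reads per Ensembl gene for 12 libraries. The submitters' processing notes name DESeq2 1.42.0, featureCounts 2.0.6, HISAT2 2.2.1 and build GRCh38, with no settings. The labels describe both stranded and unstranded kits, and for strand, multi-mapping and annotation release the setting is not given in the sources used here. All 58735 gene IDs were found in GENCODE 29, the source of symbols, coordinates and lengths.

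Counts were tested with edgeR 4.0.16 (R 4.3.3): filterByExpr, TMM, 1 robust quasi-likelihood fit over 3 groups, two-sided, Benjamini-Hochberg over 17468 genes, threshold 0.05. The outcome of a run of the fit on simulated data is not reported here, so it lends no weight to the results. Alternatives were DESeq2 1.42.0, its size factors, a replicate block, upper-quartile scaling, all genes with a count kept, a fit of only the 2 groups compared, and each library left out. The members and lists were chosen with earlier results of these data known. Named were the 10 members, called genes of the other lists, defining markers, and the 3 genes most like VEGFA, PGF, TIE1 and ENG. Genes that gave much of a marker sum were also named. The plan was up to 3 called genes per list and comparison in order of adjusted p. Some of those, such as SEMA3F and COL18A1 in the hepatic co-culture, are not described.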

Additional observations from a re-analysis of the deposited data

Results flagged for a closer look

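VEGFB was at 47.8 CPM in monoculture replicate 2, against 37.6 to 38.4 CPM in the other 3 monoculture libraries, a gap of 0.922 of the group's whole range. Of 27 sets of a member and a group examined, 1 stood out in this way, and chance does so in about 1 of 20 sets. NRP2 differed between the co-cultures, with a log2 fold change of 0.51 for cardiac over hepatic co-culture (edgeR adjusted p = 0.00666), at 53.0 ± 3.43 CPM in the cardiac and 37.2 ± 2.89 CPM in the hepatic co-culture (SD, n = 4 each).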

How the results depend on the processing

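Of 486 member values under 18 alternatives, 417 kept their direction and side of the threshold, 41 no longer passed it, 12 newly passed and 16 changed sign. TIE1 over monoculture, the hepatic values of VEGFB, PGF, NRP2, KDR and ENG, and NRP2 between the co-cultures kept their calls in all 18. The genes called for the cardiac co-culture over monoculture numbered 1443, 2406 by DESeq2 and 2219 without the low-count filter, and 263 (without cardiac replicate 2) to 3378 (without cardiac replicate 4) over the fits leaving out 1 library. They numbered 3660 to 5529 for the hepatic co-culture and 676 (without hepatic replicate 3) to 1269 between the co-cultures. Members called numbered 1 to 6 for the cardiac, 6 to 9 for the hepatic and 1 to 2 between the co-cultures in those fits. They were 2 between the co-cultures by DESeq2 and without the filter, and 2 for the cardiac with only the 2 groups fitted. The cause of these shifts was not tested.

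Signs turned as follows. For the cardiac co-culture over monoculture, VEGFC was 0.0291 under upper-quartile scaling and -0.104 to 0.0722 over the fits leaving out 1 library, and NRP2 was 0.0297 under upper-quartile scaling, 0.0122 with the replicate block, 1.1e-05 with only the 2 groups and -0.0845 to 0.137 leaving out 1 library. Between the co-cultures, leaving out 1 library gave -0.0569 to 0.406 for VEGFA, -0.104 to 0.137 for VEGFB, -0.309 to 0.0117 for PGF and -0.0729 to 0.0083 for NRP1. After group means were removed, same-numbered libraries of different groups correlated at r -0.0816 to 0.113, above 0.1 in 1 of 12 pairs. Libraries with different numbers were not compared, so this does not show whether the numbers pair them. With the replicate block 1310 genes were called for the cardiac, 4660 for the hepatic and 891 between the co-cultures, and 3, 8 and 1 members; VEGFA (adjusted p = 0.0501) and ENG (adjusted p = 0.0643) were lost and PGF (adjusted p = 0.0387) gained in the cardiac, by edgeR. Counts of KDR, TIE1 and FLT1 are low, which limits their precision.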
